A study of Mus musculus with 16 samples.

Results

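Treadmill training was examined in skeletal muscle of mice labelled CHCHD4 Tg (Tg below), with 4 libraries labelled as treadmill-trained and 4 as untrained. These were all libraries with the Tg genotype, 8 of the 16 in the series, and they were compared across all expressed genes. The other 8 libraries came from wild-type (WT) muscle, 4 trained and 4 untrained, and are used here for the spread between libraries and for the difference between the training responses. RNA was purified on columns and turned into libraries with a SMARTer mRNA kit, per the labels. The labels give no muscle name, strain, age or sex, no promoter or copy number of the transgene, no length of training and no time between the last run and sampling. Separate animals are not named either, and p-values therefore measure only how far these libraries spread, which may be technical.

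CHCHD4 is an oxidoreductase of the mitochondrial intermembrane space. It passes disulfide bonds to small imported proteins that carry paired cysteine motifs, among them assembly factors and subunits of the respiratory chain, and the bound partner AIFM1 helps its own import. Endurance training is known to raise mitochondrial content and capillary supply of muscle and to lower body fat, while a single bout of contraction switches on immediate early genes, whose transcription starts without new protein synthesis and fades within hours.

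Expression is given as CPM, counts scaled to one library size, with libraries adjusted by the trimmed mean of M-values (TMM). Totals of the 8 Tg libraries ran from 48053574 to 61703679 counts. The tissue label was checked on fast skeletal muscle transcripts: Myh4, the fast myosin heavy chain gene, measured 30659 ± 4267 CPM in untrained and 29195 ± 1808 CPM in trained Tg muscle (mean ± SD, n = 4), and Ckm, muscle creatine kinase, 6411 ± 717 and 6727 ± 369. Chchd4 itself (chromosome 6, 91462172 to 91473546 on GRCm38) measured 20.5, 20.4, 18.1 and 22.2 CPM in untrained replicates 1 to 4 and 22.2, 21.6, 21.6 and 21.8 CPM in trained ones, against 6.88 to 8.98 in WT untrained and 7.26 to 8.85 in WT trained libraries. Every Tg library was above every WT library, and the trained and untrained Tg ranges overlapped. Some untrained Tg libraries stood apart. Replicates 2 and 3 held 64.3 and 42.1 CPM of Myh7, the slow myosin gene, against 1.16 to 3.13 CPM in the other 6 Tg libraries. Replicate 2 also held 15.0 CPM of Alb, the hepatocyte albumin gene, against at most 0.201 CPM elsewhere in Tg muscle. In WT muscle, untrained replicate 2 (Alb 14.93 and Myh7 11.16 CPM), trained replicate 3 (Myh7 29.7 CPM) and trained replicate 4 (Alb 35.56 CPM) were also above 10 CPM of one or both genes, and WT untrained replicate 2 had the highest TMM factor of the 16 libraries (1.285). Values "without the libraries high in Myh7" leave out all 4 such libraries, 2 Tg and 2 WT, and those "high in Alb" all 3, 1 Tg and 2 WT. They are given where they moved a described value by over 1.5 times.

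No gene passed the test for training in Tg muscle. In edgeR's quasi-likelihood model of all 16 libraries, 0 of 17490 tested genes (percent called 0) had a Benjamini-Hochberg adjusted p under 0.05, and the lowest adjusted p was 0.132. At an unadjusted p under 0.05 there were 1938 genes (11.1%), of which 747 (4.27%) were higher and 1191 (6.81%) lower in trained libraries. Leaving out Tg untrained replicate 3 gave 1244 in place of 1938, and leaving out WT untrained replicate 2 gave 2779. With no overlap between the 4 trained and the 4 untrained libraries, 814 genes (4.65%) were higher and 792 (4.53%) lower in trained muscle. The median log2 fold change (log2FC, trained minus untrained) over all tested genes was 0.0024, and 50.6% of genes had a positive value. Fitting only the 8 Tg libraries called 123 genes (0.703%), 29 higher (0.166%) and 94 lower (0.537%), and DESeq2 on all 16 called 132, of which 54 were shared with the 123 (43.9% of the first set and 40.9% of the second). The 8-library count was unstable, from 3 without Tg trained replicate 4, 5 without trained replicate 2, 41 without untrained replicate 3, 65, 68 and 68 without untrained replicate 2 and trained replicates 1 and 3, to 414 without untrained replicate 4. "Lower" and "higher" below therefore describe levels, each with its standard error (SE) and adjusted p from the 16-library model, and no gene is said to have changed.

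Lists of genes by pathway and cell type were read by their counts and medians. Of 31 lists, 0 had a member with an adjusted p under 0.05. Lists with the lowest medians were immediate early genes (-0.91), tendon and cartilage markers (-0.74), macrophage and monocyte markers (-0.72) and adipocyte genes (-0.69), and those with the highest were protein genes of the mitochondrial genome (0.34) and nuclear genes of respiratory complexes II to V (0.17).

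**Figure D1:**
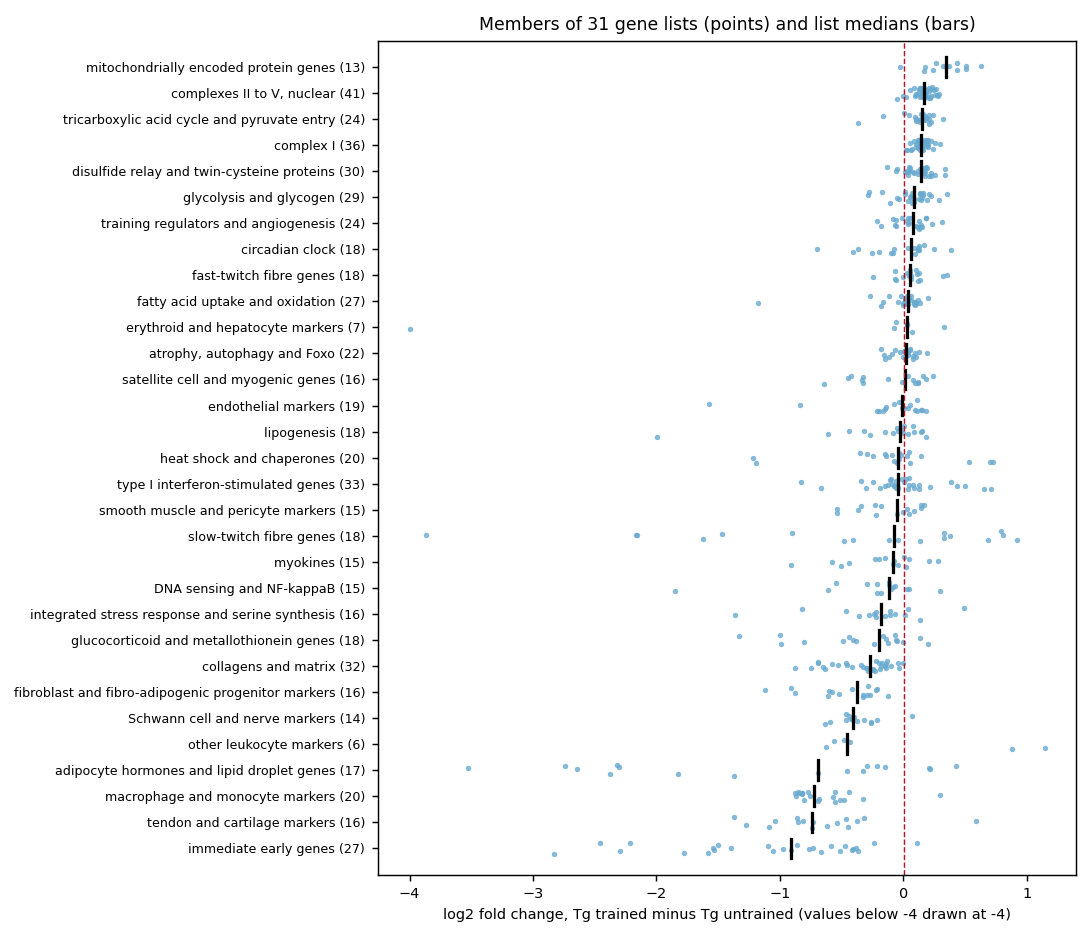
Log2 fold change (trained minus untrained Tg muscle) of each tested member of 31 gene lists (points) with the list median (bars). The number of tested members stands beside each name, and the dashed line marks the median over all tested genes (0.0024). A value of -6.69 (Alb) is drawn at the left edge. Immediate early genes (median -0.91) lie almost entirely left of 0 and the mitochondrially encoded genes (median 0.34) almost entirely right of it.

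Immediate early genes were lower in trained Tg muscle across nearly the whole list. Of 29 members, 27 passed the filter on low counts (Fosl1 and Egr4 did not), 26 of the 27 had a negative log2FC, 22 had an unadjusted p under 0.05 and all 22 were lower, against 6.81% lower among all tested genes. In 19 members every trained library was below every untrained one, against 4.53% of all genes, and 10 were among the genes called with the 8 Tg libraries alone (0.537% of tested genes were called lower there). The 1 positive value belonged to Srf (log2FC 0.11), a transcription factor that drives many of the others. The summed level of the list ran from 356.8 to 573.7 CPM in untrained and from 264.9 to 282 CPM in trained libraries. Leaving out single libraries moved the median between -0.99 and -0.82 and the count of 22 between 17 and 23.

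Fos (chromosome 12, 85473890 to 85477273) encodes a subunit of the AP-1 transcription factor. It measured 7.72, 9.09, 38.95 and 16.1 CPM in untrained replicates 1 to 4 and 2.23, 3.33, 4.45 and 3.09 CPM in trained replicates 1 to 4. All 4 trained libraries were below all 4 untrained ones, and untrained replicate 3 was far above the rest of its group. The log2FC was -2.45 (SE 0.528, adjusted p = 0.1401), and it was -1.75 without untrained replicate 3. Its relative Fosb measured 0.702, 0.963, 3.704 and 1.98 CPM in untrained and 0.129, 0.211, 0.374 and 0.311 CPM in trained libraries (log2FC -2.83, SE 0.684, adjusted p = 0.149), again with no overlap. Fosl2, another AP-1 subunit gene, was at 30.9 ± 12.2 CPM in untrained and 14.9 ± 1.51 CPM in trained libraries (log2FC -1.054, SE 0.227). Junb, the gene of an AP-1 partner, overlapped between the groups, at 4.43, 7.74, 23.4 and 17.2 CPM untrained and 4.402, 2.68, 4.86 and 3.53 CPM trained (log2FC -1.78, SE 0.599, adjusted p = 0.298).

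The Nr4a genes encode orphan nuclear receptors that respond quickly to contraction and adrenergic signals. Nr4a2 (chromosome 2, 57106830 to 57124003) measured 2.37, 3.67, 11.3 and 4.52 CPM in untrained and 1.29, 1.16, 0.866 and 1.398 CPM in trained libraries, without overlap and with replicate 3 highest (log2FC -2.22, SE 0.4496, adjusted p = 0.1401). Nr4a3 measured 4.83, 7.02, 14.4 and 8.41 CPM in untrained and 2.62, 1.53, 1.48 and 1.48 CPM in trained libraries, which did not overlap either (log2FC -2.298, SE 0.699, adjusted p = 0.247). Sik1, named after its values were seen, encodes a kinase that restrains the coactivators of CREB and is itself a target of cyclic AMP. It measured 22.7, 24.6, 41.3 and 36.9 CPM untrained and 16.2, 14.2, 10.7 and 12.7 CPM trained (log2FC -1.22, SE 0.271, adjusted p = 0.1401).

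Btg2 (chromosome 1, 134075170 to 134079120), an antiproliferative early gene, had trained libraries close to one another. It measured 18.1, 18.9, 33.9 and 42.7 CPM in untrained and 9.597, 8.96, 9.74 and 9.57 CPM in trained libraries, so that untrained replicates 1 and 2 were near 18 CPM, replicates 3 and 4 above 30 CPM and all trained ones under 10 CPM (log2FC -1.59, SE 0.3405, adjusted p = 0.1401). Klf4 and Klf2 encode Krüppel-like transcription factors, of which Klf2 is known as a flow-responsive gene of endothelium. Klf4 (chromosome 4, 55527143 to 55532466) measured 10.8, 11.7, 18.6 and 19.97 CPM in untrained and 6.87, 5.96, 4.37 and 6.02 CPM in trained libraries (log2FC -1.40, SE 0.248, adjusted p = 0.132). Klf2 measured 10.8, 9.89, 13.6 and 16.4 CPM in untrained and 5.88, 6.702, 5.25 and 7.9999 CPM in trained libraries (log2FC -0.97, SE 0.213, adjusted p = 0.1401). Neither gene overlapped between the groups, and untrained replicates 3 and 4 were the highest of the 8 libraries for both. Id1, a helix-loop-helix inhibitor gene, followed the same order, at 8.85, 7.495, 11.2 and 12.5 CPM untrained and 6.23, 5.51, 4.56 and 6.45 CPM trained (log2FC -0.82, SE 0.173, adjusted p = 0.1401).

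**Figure D2:**
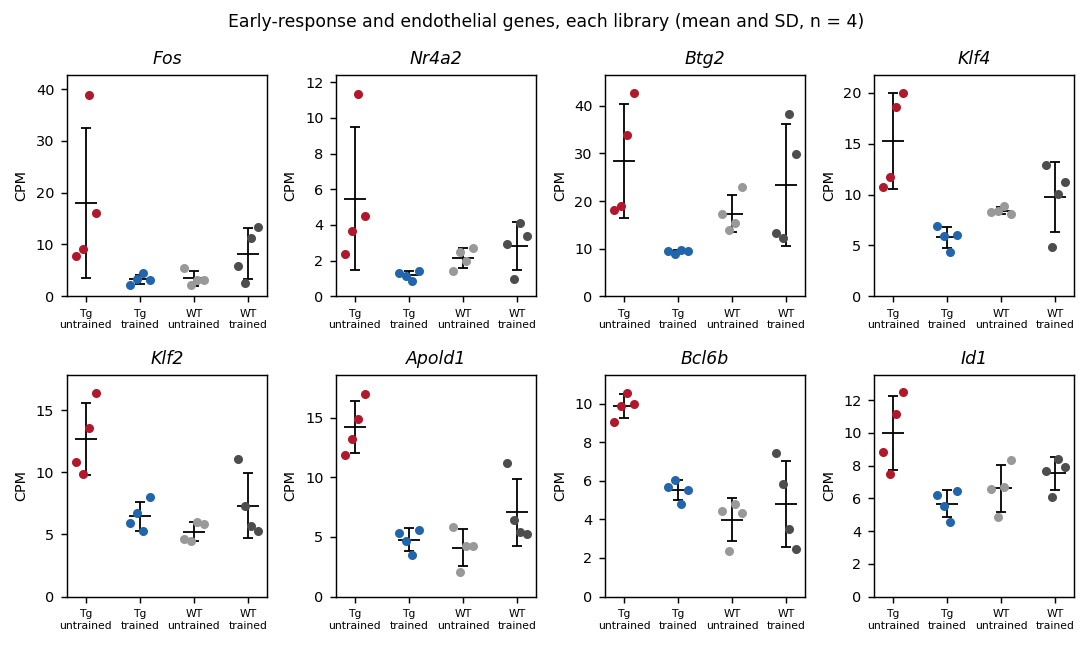
Level in CPM (linear axes) of 6 early-response genes and of the endothelial genes Apold1 and Bcl6b in each library, by group. Points are single libraries in replicate order, bars are the mean and SD (n = 4). Trained Tg libraries lie below all untrained Tg libraries in each of the 8 panels, and the WT groups overlap in each.

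Other measures moved with these genes. Hspa1a, an inducible heat shock gene, was highest in the same untrained replicate 3 as Fos, at 8.06, 6.799, 18.7 and 7.44 CPM in untrained and 7.28, 3.96, 2.42 and 4.06 CPM in trained libraries (log2FC -1.22, SE 0.4901, adjusted p = 0.375, and -0.76 without that library). Untrained replicate 3 was also the lowest of the 8 Tg libraries for mt-Atp6, Tomm5, Cmc2 and Chchd4. Their part in the result was not tested. The early-gene median was -0.91 without the libraries above 10 CPM of Myh7 and -0.99 without those above 10 CPM of Alb.

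Because the early genes were lower together, their promoters were read for 3 known response motifs. Sequences of 250 bases before the start of transcription were taken from the RefSeq set on GRCm38.p6, in which 22 of the 27 tested members had an entry. The pentamer TGACG, the core of the cyclic AMP response element, stood on either strand in 15 of 22 list promoters, in 29.2% of 11387 tested genes with an entry and in 17.8% of all 32851 windows. The full element TGACGTCA, which also contains the pentamer, stood in 3 (Btg2, Dusp1 and Maff), against 2.84% of tested genes and 1.55% of windows. The serum response element, searched as the CArG box, stood in 3 (Egr2, Zfp36 and Srf), against 1.46% of tested genes and 1.47% of windows. These are matches of letters and not measured binding sites. Sites outside the 250 bases were not searched, so a gene without a match may hold one elsewhere. The shares were not adjusted for base content, which in the printed windows ran from 50.8% (Apold1) to 80% (Nr4a2) G and C. The windows of Fos, Nr4a2 and Btg2 are shown because they hold 2 to 4 such pentamers each at genes with large differences, and that of Apold1 because its response differed between the genotypes. Each runs 5′ to 3′ on the strand of its gene, and capitals mark TGACG, its reverse complement or the full element.
Fos, chr12:85473640-85473889, plus strand: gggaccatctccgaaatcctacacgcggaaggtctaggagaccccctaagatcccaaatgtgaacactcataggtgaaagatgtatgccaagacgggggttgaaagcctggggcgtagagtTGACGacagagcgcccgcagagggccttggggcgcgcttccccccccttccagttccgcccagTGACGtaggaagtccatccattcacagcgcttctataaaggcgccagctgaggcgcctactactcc
Nr4a2, chr2:57124004-57124253, minus strand: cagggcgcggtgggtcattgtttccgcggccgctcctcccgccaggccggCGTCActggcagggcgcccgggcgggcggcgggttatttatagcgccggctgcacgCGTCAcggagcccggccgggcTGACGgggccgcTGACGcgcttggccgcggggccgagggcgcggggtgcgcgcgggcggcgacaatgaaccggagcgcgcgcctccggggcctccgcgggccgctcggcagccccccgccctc
Btg2, chr1:134079156-134079405, minus strand: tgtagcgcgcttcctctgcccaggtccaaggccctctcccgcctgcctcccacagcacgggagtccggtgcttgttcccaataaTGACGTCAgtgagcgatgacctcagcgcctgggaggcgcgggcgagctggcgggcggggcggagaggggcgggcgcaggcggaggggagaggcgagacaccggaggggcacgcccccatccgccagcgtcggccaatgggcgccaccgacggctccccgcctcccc
Apold1, chr6:134981751-134982000, plus strand: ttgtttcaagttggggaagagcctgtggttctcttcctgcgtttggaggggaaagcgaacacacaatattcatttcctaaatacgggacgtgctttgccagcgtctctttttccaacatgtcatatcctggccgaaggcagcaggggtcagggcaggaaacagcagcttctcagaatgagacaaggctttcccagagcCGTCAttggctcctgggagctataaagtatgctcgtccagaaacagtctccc
Counted from the start of transcription, the matches began 129 and 66 bases before it in Fos and 200, 144, 123 and 111 bases before it in Nr4a2. In Btg2 the 2 overlapping pentamers of the full element began 166 and 163 bases before the start, and in Apold1 the single match began 52 bases before it. These starts are those of RefSeq, which for Btg2 and Apold1 differ from the GENCODE spans printed with the genes, and the Apold1 window lies inside that gene's GENCODE span.

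In WT muscle the same list had a median of 0.07, with 17 of 27 members positive and 5 at an unadjusted p under 0.05, all higher (4.76% of all genes were higher there). The difference between the responses (Tg minus WT) was negative for 25 of the 27 members with a median of -1.08, and 17 had an unadjusted p under 0.05, all lower in Tg, against 3.6% of tested genes. Over all genes 9 passed the adjusted test of the difference (0.0515%), none of them in the early-gene list. The difference was -3.69 for Fos (SE 0.746, adjusted p = 0.129), -1.47 for Klf2 (SE 0.305, adjusted p = 0.159) and -1.62 for Klf4 (SE 0.348, adjusted p = 0.202). WT means were 3.503 ± 1.44 and 8.23 ± 4.96 CPM for Fos without and with training, so untrained Tg libraries held the highest group mean of the 4.

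Among genes of at least 5 CPM, Apold1 had the smallest p of those lower in trained Tg muscle. It encodes a lipid-associated protein of endothelium that is induced as an early gene (chromosome 6, 134981718 to 134986836). It measured 11.9, 13.2, 14.9 and 16.96 CPM in untrained and 5.37, 4.63, 3.48 and 5.57 CPM in trained libraries. The groups were far apart, with the lowest untrained library above 11 CPM and the highest trained one under 6 CPM (log2FC -1.58, SE 0.268, adjusted p = 0.132). In WT muscle it measured 4.098 ± 1.54 CPM without and 7.08 ± 2.81 CPM with training (log2FC 0.80). The difference of the responses was -2.38 (SE 0.384, edgeR adjusted p = 0.0268) and passed the test. That call was lost in 10 of 26 alternatives, namely with robust dispersion, without the libraries high in Myh7, and without Tg trained replicate 1, 2 or 3, Tg untrained replicate 2, 3 or 4, or WT untrained replicate 3 or 4, each left out singly. The value stayed between -2.60 and -2.06. The other named genes of at least 5 CPM that passed the test of the difference were Thap2 (1.04, adjusted p = 0.0105) and Zfc3h1 (0.85, adjusted p = 0.0266). Both are neighbours on chromosome 10, so their values need not be separate responses. Their log2FC was 0.13 and 0.03 in Tg muscle and -0.91 and -0.82 in WT muscle.

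Most endothelial markers were level. Of 19 tested, 9 were positive and 10 negative, and 2 did not overlap between the groups, both lower in trained muscle (4.53% of all genes): Apold1 and Bcl6b. Bcl6b, a transcriptional repressor gene of endothelium, measured 9.03, 9.87, 10.5 and 9.99 CPM untrained and 5.69, 6.04, 4.82 and 5.495 CPM trained (log2FC -0.84, SE 0.251, adjusted p = 0.241), against 3.98 ± 1.0999 and 4.805 ± 2.23 CPM in WT muscle. Pecam1 (log2FC 0.00), Cdh5 (0.04) and Kdr (0.06), genes of the endothelial junction and of the VEGF receptor, had values near 0. In a bulk sample, fewer cells of a type and less RNA per cell cannot be told apart.

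Some cytoskeletal genes of non-muscle and smooth muscle cells were lower in trained libraries. They were picked after the values were seen, so they do not speak for such genes as a class. Actb, cytoplasmic actin, measured 194, 184, 203 and 204 CPM untrained and 159, 148, 153 and 151 CPM trained (log2FC -0.36, SE 0.126, adjusted p = 0.313), with Actg1 alongside at 75.3 ± 3.17 and 60.000 ± 3.42 CPM (log2FC -0.33, SE 0.212). Tuba1a, an alpha-tubulin gene, measured 18.9, 16.1, 18.2 and 17.8 CPM untrained and 11.6, 9.56, 12.1 and 10.9 CPM trained (log2FC -0.69, SE 0.177, adjusted p = 0.173). None of these 3 genes overlapped between the groups, nor did Zyx, the gene of the focal adhesion protein zyxin (10.5 ± 0.875 against 7.87 ± 0.2903 CPM, log2FC -0.42, SE 0.1096). Of all genes 4.53% were lower without overlap. Acta2, smooth muscle actin, stood at 24.3 ± 3.78 CPM untrained and 16.7 ± 1.35 CPM trained (log2FC -0.53, SE 0.182). The wider smooth muscle and pericyte list was mixed, with 6 of 15 members positive, among them Des (log2FC 0.17). Only 1 member, Acta2, was lower without overlap.

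Single genes outside these groups were also among the 12 lower genes with the smallest p. Coq10b, which encodes a coenzyme Q-binding protein of mitochondria, measured 21.9, 22.5, 28.5 and 26.6 CPM untrained and 18.5, 17.3, 15.6 and 17.2 CPM trained (log2FC -0.54, SE 0.102, adjusted p = 0.132). Serp1, a small protein gene of the endoplasmic reticulum translocon, measured 9.01, 9.67, 9.79 and 8.41 CPM untrained and 7.24, 7.16, 7.14 and 6.45 CPM trained (log2FC -0.40, SE 0.0762, adjusted p = 0.132). Slc1a5 encodes a glutamine transporter and measured 17.1, 11.8, 15.7 and 10.2 CPM untrained and 8.89, 6.47, 9.42 and 6.699 CPM trained (log2FC -0.80, SE 0.166, adjusted p = 0.1401). None of the 3, picked by small p, overlapped between the groups (4.53% of all genes were lower without overlap). Errfi1, a feedback inhibitor of the EGF receptor, was named after its values were seen. It stood at 37.99 ± 2.68 CPM untrained and 22.5 ± 2.64 CPM trained (log2FC -0.76, SE 0.181), again without overlap.

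Adipocyte genes were lower in trained Tg muscle. Of 18 members 17 were tested (Adrb3 was not), 14 were negative and 3 positive, and the median was -0.69. At an unadjusted p under 0.05, 11 were lower (6.81% of all genes) and 1, Pnpla2, was higher (4.27%). In 7 members all trained libraries were below all untrained ones (4.53% of all genes). The summed level ran from 416.2 to 511.2 CPM untrained and from 333.6 to 384.9 CPM trained, and single libraries left out moved the median between -0.81 and -0.60.

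Lep (chromosome 6, 29060220 to 29073877), which encodes the hormone leptin, measured 9.21, 2.81, 2.197 and 2.18 CPM in untrained and 0.279, 0.158, 0.925 and 0.0583 CPM in trained libraries. All trained libraries were under 1 CPM, and untrained replicate 1 was well above its group (log2FC -3.53, SE 0.651, adjusted p = 0.132, and -2.75 without that library). Cidec (chromosome 6, 113424634 to 113435760), a lipid droplet fusion gene, measured 6.901, 3.05, 2.96 and 2.14 CPM untrained and 0.666, 0.158, 1.14 and 0.311 CPM trained (log2FC -2.74, SE 0.525, adjusted p = 0.132). Adipoq, which encodes adiponectin, measured 8.93, 4.48, 4.01 and 2.49 CPM untrained and 1.12, 0.351, 1.97 and 0.427 CPM trained (log2FC -2.37, SE 0.537, adjusted p = 0.141). The 3 genes shared an order: untrained replicate 1 was the highest library, trained replicate 3 the highest of the trained ones and no trained library reached an untrained one.

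Further adipocyte genes kept that direction. Plin1, the main lipid droplet coat gene of fat cells, measured 3.81 ± 2.49 CPM untrained and 0.779 ± 0.577 CPM trained (log2FC -2.302, SE 0.547), with 1 trained library reaching into the untrained range. Retn, the resistin gene, stood at 0.687 ± 0.246 and 0.1098 ± 0.109 CPM (log2FC -2.64, SE 0.608). Transcription factor genes of adipocyte identity were lower as well. Pparg measured 2.69, 1.99, 1.74 and 2.56 CPM untrained and 1.52, 1.18, 1.36 and 1.495 CPM trained (log2FC -0.69, SE 0.149, adjusted p = 0.1401). Cebpa, named after its values were seen, stood at 3.14 ± 0.925 and 1.39 ± 0.329 CPM (log2FC -1.18, SE 0.269). Other list members were closer to 0, among them Fabp4 (log2FC -0.22), Lipe (-0.33), G0s2 (-0.29) and Tmem120b (-0.15). The 3 positive members were Cidea (log2FC 0.42), Pnpla2 (0.22) and Aqp7 (0.21).

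Of the lipogenic enzymes, Scd1 stood out (chromosome 19, 44394455 to 44407879). This stearoyl-CoA desaturase gene measured 144, 72.9, 79.3 and 22.5 CPM untrained and 23.8, 15.2, 26.4 and 14.5 CPM trained, so that untrained replicate 4 fell inside the trained range (log2FC -2.00, SE 0.4299, adjusted p = 0.1401). Fasn, fatty acid synthase, measured 27.5, 14.8, 26.5 and 10.6 CPM untrained and 13.4, 11.3, 15.6 and 11.7 CPM trained, with overlap (log2FC -0.61, SE 0.246). Acly, which supplies cytosolic acetyl-CoA, stood at 11.4 ± 0.484 and 9.43 ± 0.345 CPM without overlap (log2FC -0.27, SE 0.1001). Over the 18 lipogenesis genes 11 were negative and 7 positive, and the other desaturase, Scd2, was at 0.00. Untrained replicate 4 had the lowest level of its group for Scd1, Fasn, Plin1 and Adipoq.

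In WT muscle 11 of the 17 adipocyte genes were negative with a median of -0.22, and 7 were lower (4.79% of all genes) and 3 higher (4.76%) at an unadjusted p under 0.05. The difference of responses had a median of -0.84, with 2 members lower in Tg at an unadjusted p under 0.05 (3.6% of all genes) and 0 called. Lep had a log2FC of -2.21 in WT muscle (difference -1.32, adjusted p = 0.905), Adipoq -1.54 (difference -0.84, adjusted p = 0.918) and Scd1 -1.74 (difference -0.26, adjusted p = 0.963). These tests do not show that the genotypes respond alike.

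**Figure D3:**
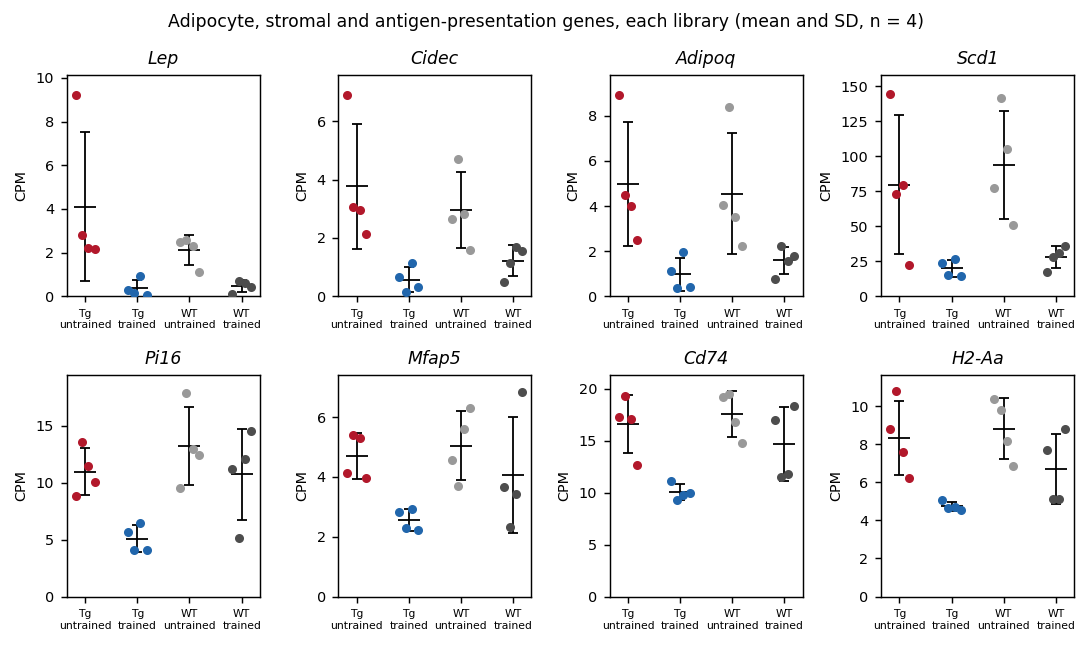
Level in CPM (linear axes) of 4 fat genes, 2 stromal genes and 2 genes of antigen presentation in each library, by group. Points are single libraries in replicate order, bars are the mean and SD (n = 4). Trained Tg libraries lie below all untrained Tg libraries in every panel but Scd1, where untrained replicate 4 reaches into their range.

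Connective tissue genes were also lower in trained Tg muscle. All 32 collagen and matrix genes were negative (median -0.27), and 8 did not overlap between the groups (4.53% of all genes were lower without overlap). Of 16 markers of fibroblasts and fibro-adipogenic progenitors, the mesenchymal cells between fibres, 16 were negative, with a median of -0.37 and 7 without overlap. The fibroblast markers summed to 589 to 809.8 CPM untrained and 467.5 to 575.9 CPM trained. Tendon and cartilage markers had a median of -0.74 (15 of 16 negative), and it was -0.47 without untrained replicate 3 and -0.28 without the libraries high in Myh7. The part of the adipocyte markers in these values was not tested. In WT muscle the median was -0.26 for the collagen and matrix genes (28 of 32 negative) and -0.30 for the fibroblast markers (13 of 16 negative). For tendon and cartilage markers the WT median was -1.06, with 16 of 16 negative.

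Pi16 marks a stem-like pool of adventitial fibroblasts and led the stromal list. It measured 8.81, 13.6, 11.5 and 10.1 CPM untrained and 5.65, 4.05, 6.47 and 4.12 CPM trained (log2FC -1.12, SE 0.264, adjusted p = 0.143). Its partner markers of the same cells, Mfap5 and Dpp4, measured 4.13, 5.41, 5.303 and 3.95 CPM and 2.39, 3.99, 2.996 and 2.305 CPM untrained against 2.81, 2.28, 2.91 and 2.21 CPM and 2.17, 1.21, 1.38 and 1.48 CPM trained (log2FC -0.88 and -0.91). No trained library of these 3 genes reached an untrained one. Fbn1, the gene of the microfibril protein fibrillin, stood at 53.4 ± 11.1 and 34.04 ± 2.83 CPM (log2FC -0.65, SE 0.215), Fn1, fibronectin, at 72.2 ± 15.5 and 44.7 ± 7.42 CPM (log2FC -0.69, SE 0.256) and Dcn, the proteoglycan decorin, at 173 ± 29.9 and 115 ± 13.1 CPM (log2FC -0.58, SE 0.203). The fibril-forming and basement membrane collagens were nearer to 0, with log2FC of -0.23 for Col1a1, -0.05 for Col3a1, -0.03 for Col4a1 and -0.0001 for Col4a2. Chad, a cartilage matrix gene, overlapped between the groups (2.97, 4.75, 8.26 and 2.9997 CPM untrained, 2.79, 1.09, 2.97 and 1.048 CPM trained, log2FC -1.27, SE 0.504). Without the libraries high in Myh7 the log2FC was -0.60 for Dpp4, -0.37 for Fbn1, -0.41 for Fn1, -0.35 for Dcn and -0.61 for Chad.

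Cd74, the invariant chain of the class II major histocompatibility complex, which presents antigen, measured 17.3, 19.3, 17.03 and 12.6 CPM untrained and 11.1, 9.298, 9.78 and 9.98 CPM trained (log2FC -0.72, SE 0.154, adjusted p = 0.1401). Of its binding partners 3 were named after their values were seen and form no list: H2-Aa stood at 8.34 ± 1.93 and 4.75 ± 0.238 CPM (log2FC -0.81, SE 0.188), H2-Ab1 at 5.92 ± 1.12 and 3.42 ± 0.475 CPM (log2FC -0.79, SE 0.168) and H2-Eb1 at 5.35 ± 0.722 and 3.27 ± 0.246 CPM (log2FC -0.71, SE 0.183). The trained groups were narrow, at 4.54 to 5.09 CPM for H2-Aa and 9.298 to 11.1 CPM for Cd74.

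Macrophage markers shared this direction less evenly. Of 20, 19 were negative and the median was -0.72, against -0.04 in WT muscle, but only 1, Csf2ra, was free of overlap (4.53% of all genes were lower without overlap). Csf2ra encodes a receptor subunit for GM-CSF and measured 0.682, 0.676, 0.745 and 0.695 CPM untrained and 0.472, 0.351, 0.453 and 0.466 CPM trained (log2FC -0.69, SE 0.158, adjusted p = 0.143). C1qa, a complement gene of resident macrophages, measured 4.39, 4.59, 4.83 and 2.71 CPM untrained and 2.92, 1.93, 2.401 and 1.903 CPM trained (log2FC -0.85, SE 0.3005, adjusted p = 0.312). Mrc1, the mannose receptor gene, measured 9.09, 13.1, 9.93 and 6.13 CPM untrained and 6.23, 5.42, 5.59 and 5.42 CPM trained (log2FC -0.76, SE 0.279). For C1qa and Mrc1 untrained replicate 4 lay among the trained libraries. Without the libraries high in Myh7 the median was -0.34 and the log2FC of Mrc1 -0.425. The difference of responses was negative in the median (-0.68), with 4 members lower in Tg at an unadjusted p under 0.05 (3.6% of all genes) and 0 called.

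Protein genes of the mitochondrial genome were higher in trained Tg muscle. Of 13, 12 were positive with a median of 0.34, and 6 did not overlap between the groups, all higher (4.65% of all genes were higher without overlap). Their sum ran from 33320 to 49450 CPM in untrained and from 50770 to 56960 CPM in trained libraries, which did not overlap. mt-Nd6, the complex I subunit gene on the light strand, measured 370.2, 356, 264 and 354 CPM untrained and 447, 559, 440.2 and 458 CPM trained (log2FC 0.50, SE 0.148, adjusted p = 0.238). mt-Atp6, a subunit gene of the ATP synthase proton channel, measured 728, 813, 435 and 747 CPM untrained and 1065, 1177, 1031 and 937 CPM trained (log2FC 0.63, SE 0.195, adjusted p = 0.256). For both genes untrained replicate 3 was the lowest of the 8 libraries. Without that library the list median was 0.21, and without the libraries high in Myh7 it was 0.225. The ribosomal RNA mt-Rnr2 took 27.4 ± 0.92% of all counts in untrained and 28.985 ± 0.512% in trained libraries, with overlap (26.68% to 28.72% against 28.48% to 29.55%), and its part in the result was not tested. In WT muscle the list median was 0.16, and 1 member had an unadjusted p under 0.05 for the difference, higher in Tg (2.43% of all genes).

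Nuclear genes of the respiratory chain were higher by small amounts. All 36 tested subunit genes of complex I had a positive log2FC with a median of 0.14, and 10 did not overlap (4.65% of all genes). Of 41 genes of complexes II to V, 39 were positive with a median of 0.17, and 15 did not overlap. Ndufs4, a complex I subunit gene, measured 62.01, 65.2, 58.4 and 59.4 CPM untrained and 77.4, 78.3, 72.8 and 72.1 CPM trained (log2FC 0.30, SE 0.0981, adjusted p = 0.294). Sdhaf4, an assembly factor of complex II named after its values were seen, stood at 5.39 ± 0.271 CPM untrained and 7.02 ± 0.177 CPM trained (log2FC 0.38, SE 0.114). WT medians were 0.13 for complex I and 0.12 for complexes II to V. Without Tg untrained replicate 3 the Tg medians were 0.08 and 0.10, and without the libraries high in Myh7 0.06 and 0.08. TMM factors of the Tg libraries did not overlap between the groups either, at 0.9953 to 1.105 untrained and 0.9242 to 0.9802 trained. The part of this scaling in such small values was not tested.

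Genes of the disulfide relay, the pathway that CHCHD4 itself drives, were also higher by small amounts. This list shares Ndufs5, Ndufa8, Ndufb7, Uqcrh and Cox6b1 with the respiratory chain lists. The likeness of the lists is therefore partly built in. Of 30 members, which include relay enzymes and proteins with paired cysteine motifs, 27 were positive with a median of 0.14, and 11 did not overlap, all higher (4.65% of all genes). The summed level ran from 959.2 to 1159 CPM untrained and from 1171 to 1198 CPM trained. Cox17, the copper chaperone of cytochrome c oxidase, measured 17.3, 18.7, 16.96 and 17.6 CPM untrained and 19.6, 20.4, 20.6 and 19.2 CPM trained (log2FC 0.18, SE 0.0598, adjusted p = 0.296). Its log2FC in WT muscle was -0.10 and the difference 0.28 (SE 0.0847, adjusted p = 0.602). Cmc2, an assembly factor of the same enzyme, stood at 6.22 ± 0.664 and 7.86 ± 0.537 CPM (log2FC 0.34, SE 0.132). Chchd1, a mitochondrial ribosome protein gene, stood at 24.8 ± 1.27 and 27.7 ± 1.19 CPM (log2FC 0.16, SE 0.0636), and Timm8a1, a small carrier-chaperone gene, at 3.12 ± 0.164 and 3.93 ± 0.4303 CPM (log2FC 0.34, SE 0.1396). The partner enzymes Aifm1 and Gfer were at log2FC 0.18 and 0.03. The median in WT muscle was 0.11, and in Tg it was 0.09 without untrained replicate 3 and 0.06 without the libraries high in Myh7.

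Fuel pathways moved little. Of 24 genes of the tricarboxylic acid cycle and pyruvate entry, 22 were positive with a median of 0.15 (0.09 without untrained replicate 3 and 0.06 without the libraries high in Myh7). Pdha1, the catalytic subunit gene of pyruvate dehydrogenase, measured 319, 342, 300.4 and 332 CPM untrained and 383, 385, 367 and 358 CPM trained (log2FC 0.21, SE 0.0956, adjusted p = 0.445). Genes of fatty acid uptake and oxidation were split, 18 positive and 9 negative of 27. In that list 0 were free of overlap, against 4.65% higher and 4.53% lower of all genes. Cpt1b, the muscle gate for fatty acid entry, was at log2FC 0.08. Of 29 glycolysis and glycogen genes 23 were positive and 5 did not overlap, all higher (4.65% of all genes). Gbe1, the glycogen branching enzyme, led them at 53.2, 59.4, 47.4 and 56.96 CPM untrained and 66.02, 74.2, 64.5 and 71.7 CPM trained (log2FC 0.35, SE 0.0939, adjusted p = 0.18999).

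Regulators of training adaptation had small values. Of 24 genes, 17 were positive, and 2 did not overlap, both higher (4.65% of all genes). Ppargc1a, the coactivator of mitochondrial biogenesis, measured 26.9, 29.8, 27.3 and 30.7 CPM untrained and 36.1, 35.6, 37.3 and 33.3 CPM trained, without overlap, yet with a wide error (log2FC 0.31, SE 0.197, adjusted p = 0.606). It was among the genes called with the 8 Tg libraries alone. In WT muscle it stood at 28.9 ± 7.81 and 43.98 ± 13.5 CPM, and the difference was -0.29 (SE 0.278). Tfam, which packages mitochondrial DNA, was at log2FC 0.04, Nrf1 at -0.06 and Vegfa, the angiogenic growth factor, at 0.12. Sirt3, a mitochondrial deacetylase gene, was at 0.23 without overlap.

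Among genes of at least 5 CPM that were higher in trained Tg muscle, Sbk2 had the smallest p. It encodes an SH3-binding kinase (chromosome 7, 4940512 to 4964406) and measured 34.05, 36.2, 33.1 and 23.4 CPM untrained and 58.1, 59.1, 43.5 and 61.3 CPM trained. The groups did not overlap, with untrained replicate 4 lowest and trained replicate 3 lowest of its group (log2FC 0.81, SE 0.131, adjusted p = 0.132). WT muscle had a log2FC of 0.62 (difference 0.19, adjusted p = 0.924). Cryab (chromosome 9, 50751325 to 50756636), a small heat shock protein of the sarcomere, measured 163, 184, 169 and 169 CPM untrained and 363, 284, 198 and 287 CPM trained (log2FC 0.72, SE 0.1501, adjusted p = 0.1401). Untrained levels were nearly equal, trained replicate 1 was highest and replicate 3 was close to the untrained libraries. In WT muscle Cryab stood at 173 ± 24.4 and 173 ± 23.97 CPM, and the difference was 0.73 (SE 0.212, adjusted p = 0.593).

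Other small heat shock genes of muscle showed the same trained replicate 3 as lowest or near lowest. Hspb7 measured 116, 87.5, 80.4 and 117 CPM untrained and 177, 188, 94.5 and 193 CPM trained, with overlap through that library (log2FC 0.70, SE 0.254, adjusted p = 0.329). Hspb6 measured 217, 205, 180.1 and 236 CPM untrained and 286, 319.8, 281 and 325 CPM trained, without overlap (log2FC 0.53, SE 0.223, adjusted p = 0.4003). Fhl1, a LIM-domain protein gene of the sarcomere, measured 732, 698, 566 and 658 CPM untrained and 1121, 1305, 928 and 1283 CPM trained (log2FC 0.81, SE 0.3099, adjusted p = 0.357). Mustn1, a muscle gene of growth and regeneration, measured 32.4, 20.2, 19.4 and 29.4 CPM untrained and 81.7, 51.9, 26.7 and 54.9 CPM trained, and trained replicate 3 lay inside the untrained range (log2FC 1.09, SE 0.348, adjusted p = 0.277). The heat shock list as a whole was not shifted, with 7 positive and 13 negative of 20.

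**Figure D4:**
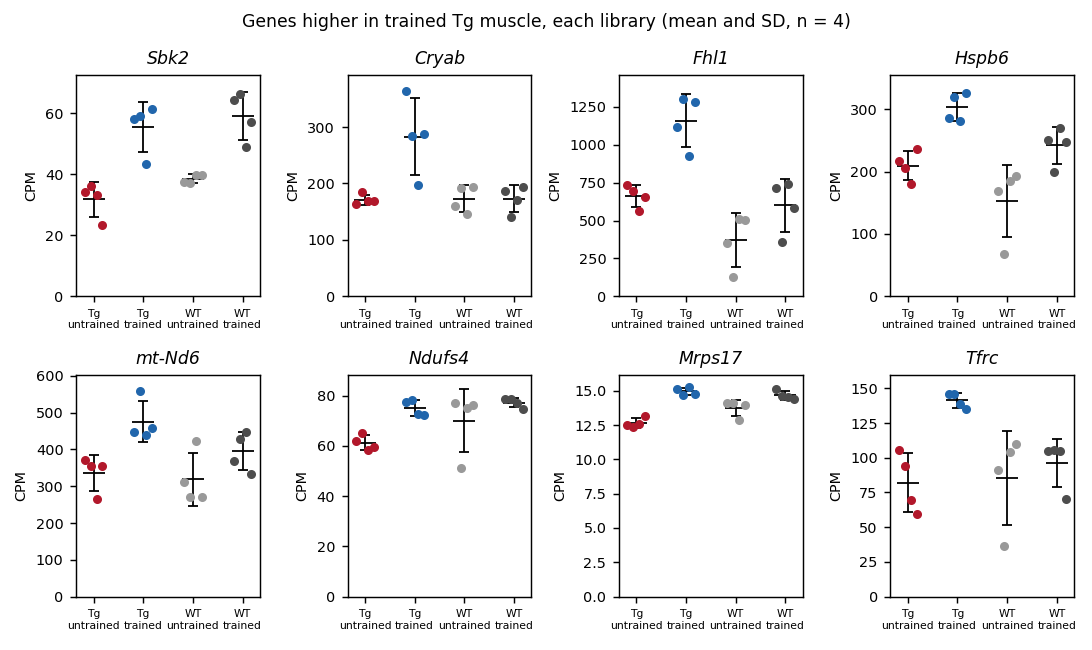
Level in CPM (linear axes from 0) of 8 genes higher in trained Tg muscle in each library, by group. Points are single libraries in replicate order, bars are the mean and SD (n = 4). Trained Tg libraries lie above all untrained Tg libraries in each panel, by a wide gap for Tfrc (59.2 to 106 against 135 to 146 CPM) and a narrow one for Cryab.

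Several higher genes with small p differed by little and varied little between libraries. Mrps17, a mitochondrial ribosome protein gene, measured 12.5, 12.3, 12.6 and 13.2 CPM untrained and 15.2, 14.7, 15.2 and 14.8 CPM trained (log2FC 0.24, SE 0.0475, adjusted p = 0.132). Tomm5, a subunit gene of the outer membrane import channel, stood at 9.37 ± 0.7699 and 11.5 ± 0.2905 CPM (log2FC 0.29), and Micu2, a gatekeeper of the mitochondrial calcium uniporter, at 12.02 ± 0.456 and 14.6 ± 0.669 CPM (log2FC 0.28). Clec16a, an endosomal regulator of mitophagy, stood at 34.1 ± 0.592 and 40.6 ± 1.35 CPM (log2FC 0.25) and Trp53inp2, an autophagy factor gene, at 155 ± 9.61 and 202 ± 11.8 CPM (log2FC 0.39). Hcfc1r1 (15.7 ± 1.18 and 19.7 ± 0.778 CPM, log2FC 0.33), Jarid2, a Polycomb cofactor gene (20.8 ± 0.959 and 25.7 ± 1.15 CPM, log2FC 0.30), Popdc2, a cyclic AMP-binding membrane protein gene (18.6 ± 0.506 and 22.4 ± 0.642 CPM, log2FC 0.26), and Pon2, a paraoxonase gene (15.7 ± 1.26 and 19.7 ± 0.967 CPM, log2FC 0.33), completed the set. None of these 9 genes overlapped between the groups (4.65% of all genes were higher without overlap), and their adjusted p ran from 0.132 to 0.141. As they were picked by small p, the lack of overlap is no separate result.

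Tfrc, the transferrin receptor for iron uptake, was named after its values were seen and measured 106, 93.9, 69.5 and 59.2 CPM untrained and 146, 146, 139 and 135 CPM trained (log2FC 0.79, SE 0.258, adjusted p = 0.288). Trained libraries were tightly grouped, and untrained ones spread widely below them. Slc11a2, an iron transporter gene, stood at 12.2 ± 0.789 and 14.8 ± 1.051 CPM (log2FC 0.28, SE 0.0653, adjusted p = 0.143). Alas1, the first enzyme of haem synthesis, also named after its values were seen, stood at 53.97 ± 4.65 and 68.3 ± 0.967 CPM (log2FC 0.34, SE 0.192, adjusted p = 0.545). Bdh1, which interconverts ketone bodies, measured 8.69, 15.3, 12.04 and 6.75 CPM untrained and 16.1, 21.3, 19.1 and 21.2 CPM trained (log2FC 0.87, SE 0.2801, adjusted p = 0.282, and log2FC 1.34 without the libraries high in Myh7, where it passed the test), and Lrtm2 6.701, 5.47, 3.72 and 4.08 CPM untrained and 8.76, 9.77, 8.795 and 9.71 CPM trained (log2FC 0.89, SE 0.251, adjusted p = 0.217).

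Among genes of at least 5 CPM with an unadjusted p under 0.05, the highest log2FC belonged to Lars2, the mitochondrial leucyl-tRNA synthetase gene. It measured 378, 255, 190.0 and 210.1 CPM untrained and 564, 829, 624 and 429.9 CPM trained, without overlap but with a wide spread in both groups (log2FC 1.24, SE 0.405, adjusted p = 0.286). CT010467.1, a row annotated as ribosomal RNA, came next at 1831, 1155, 1140.3 and 1228 CPM untrained and 2466, 4264, 2781 and 1896 CPM trained (log2FC 1.09, SE 0.398, adjusted p = 0.334). In both rows trained replicate 2 was highest, the library with the largest share of mt-Rnr2 (29.55%). The part of ribosomal RNA in the Lars2 values was not tested.

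Low-level slow-fibre genes were high in 2 untrained libraries. Myh7 (chromosome 14, 54970684 to 54994626) measured 1.91, 64.3, 42.1 and 3.13 CPM untrained and 2.47, 1.16, 2.499 and 1.57 CPM trained (log2FC -3.86, SE 1.096, adjusted p = 0.225). Replicates 2 and 3 were high and replicates 1 and 4 lay at the trained level. Tnnc1, slow troponin C, measured 0.522, 6.47, 4.19 and 0.786 CPM untrained and 0.709, 0.561, 0.807 and 0.602 CPM trained, and Myl2, the slow regulatory light chain, 2.43, 14.7, 29.9 and 2.56 CPM untrained and 1.98, 3.23, 2.597 and 3.22 CPM trained. Atp2a2, the slow calcium pump, measured 19.3, 44.95, 51.05 and 21.1 CPM untrained and 19.1, 18.2, 17.3 and 18.3 CPM trained. All 4 genes were high in the same 2 libraries. Without the libraries above 10 CPM of Myh7 the log2FC of Tnnc1 was 0.02, of Myl2 0.15, of Tnni1, slow troponin I, 0.03, of Atp2a2 -0.15 and of Myh7 -0.40.

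Mss51, a muscle-enriched gene, reached 9.71, 35.2, 144 and 5.94 CPM untrained and 11.2, 13.8, 15.1 and 11.98 CPM trained (log2FC -1.91, SE 0.648). Untrained replicate 3 alone was at 144 CPM, and the log2FC was -0.39 without it and 0.74 without the libraries high in Myh7. Myl3, a slow essential light chain gene, went the other way in that library, at 25.04, 24.4, 6.54 and 22.4 CPM untrained and 26.8, 33.3, 53.5 and 34.7 CPM trained (log2FC 0.92, SE 0.433, adjusted p = 0.449). The summed slow-fibre list, in which abundant genes weigh most, ran from 1838 to 2344 CPM untrained and from 2681 to 3159 CPM trained. Fast-fibre genes were level, with 13 of 18 positive and 0 free of overlap (4.65% of all genes were higher and 4.53% lower without overlap). Myh1 and Myh2, the other adult fast myosins, had log2FC of 0.35 and 0.32, and Myh4 of -0.07.

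**Figure D5:**
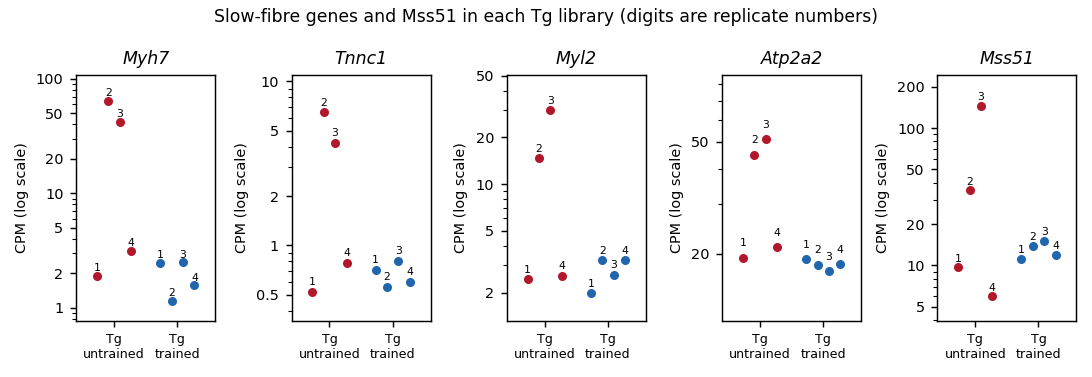
Level in CPM (log axes) of 4 slow-fibre genes and Mss51 in each of the 8 Tg libraries, numbered by replicate. Untrained replicates 2 and 3 lie above the 6 other libraries in each panel, while untrained replicates 1 and 4 lie near the trained libraries.

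Clock genes and glucocorticoid-responsive genes were examined because they move with time of day and handling. Of 18 clock genes, 1 was higher and 2 were lower without overlap (4.65% and 4.53% of all genes). Per1 measured 43.9, 39.4, 53.9 and 60.3 CPM untrained and 40.5, 35.98, 33.3 and 38.7 CPM trained, with overlap (log2FC -0.41, SE 0.15996, adjusted p = 0.3599), Ciart 6.34, 6.21, 5.83 and 8.27 and 5.35, 4.9999, 5.23 and 5.09 CPM (log2FC -0.37, SE 0.135) and Nr1d1 26.4, 25.3, 22.2 and 22.6 and 26.1, 31.4, 35.3 and 32.6 CPM (log2FC 0.38, SE 0.162). The 2 lower ones without overlap were Ciart and Arntl (log2FC -0.20), and the higher one was Dbp (0.17). Nfil3 had the lowest log2FC of the list (-0.70), with overlap. Core members Clock (0.04) and Per2 (-0.26) overlapped as well. Of 18 glucocorticoid and metallothionein genes 16 were negative with a median of -0.20, and -0.35 without Tg trained replicate 1. At an unadjusted p under 0.05, 4 were lower (6.81% of all genes). Without overlap 4 were lower (4.53% of all genes), namely Mt1, Mt2 (log2FC -1.33), Cdkn1a (-0.80) and Angptl4 (-0.44). Sgk1 (0.19) was the 1 higher without overlap (4.65%). Mt1, a metallothionein, measured 4.92, 4.98, 6.901 and 11.2 CPM untrained and 4.21, 3.11, 3.97 and 2.82 CPM trained (log2FC -0.99, SE 0.424, adjusted p = 0.403), and Ddit4, an inhibitor of mTORC1, 15.99, 12.8, 27.2 and 35.3 CPM and 19.9, 8.54, 7.14 and 10.2 CPM, with overlap (log2FC -1.002, SE 0.443). Untrained replicates 3 and 4 were the highest for Per1, Mt1 and Ddit4, as they were for Klf4, Klf2 and Btg2, and the part of these genes in one another's values was not tested.

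Stress and immune pathways differed from list to list. Phgdh, the first enzyme of serine synthesis, measured 1.44, 1.11, 1.62 and 0.805 CPM untrained and 0.558, 0.263, 0.689 and 0.427 CPM trained (log2FC -1.37, SE 0.267, adjusted p = 0.132). It was the only 1 of 16 tested members of its list without overlap (4.53% of all genes were lower without overlap). Atf4, the list's transcription factor, was at log2FC -0.07. Of 15 tested genes of DNA sensing and NF-kappaB, 12 were negative, with a median of -0.12. At an unadjusted p under 0.05, 4 were lower (6.81% of all genes). Also 4 were lower without overlap (4.53% of all genes), namely Cxcl1, Icam1, Rela and Nfkb1 (log2FC -0.12). Cxcl1, a neutrophil chemokine gene, measured 0.321, 0.328, 0.254 and 0.805 CPM untrained and 0.107, 0.0702, 0.177 and 0.117 CPM trained, under 1 CPM throughout (log2FC -1.85, SE 0.4402, adjusted p = 0.143). Icam1, an adhesion gene under NF-kappaB, stood at 2.18 ± 0.389 and 1.49 ± 0.125 CPM (log2FC -0.55, SE 0.172), and Rela, an NF-kappaB subunit, at 7.86 ± 0.602 and 6.77 ± 0.1804 CPM (log2FC -0.22, SE 0.0843), neither with overlap. Cgas, the cytosolic DNA sensor gene, overlapped at 0.281, 0.389, 0.454 and 0.512 CPM untrained and 0.386, 0.246, 0.216 and 0.233 CPM trained (log2FC -0.61, SE 0.278). Of 33 interferon-stimulated genes 15 were positive and 18 negative. Rsad2, the antiviral viperin gene, and Usp18, a brake on interferon signalling, were the 2 with an unadjusted p under 0.05, both higher (4.27% of all genes), at log2FC 0.50 (SE 0.174) and 0.43 (SE 0.164), and Rsad2 was at 0.24 without the libraries high in Myh7.

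Of 22 atrophy and autophagy genes 14 were positive and 8 negative, and the ubiquitin ligase gene Fbxo32 was at log2FC 0.04. Among 16 tested satellite cell and myogenic genes, Pax7, the stem cell factor, was at 0.24 and Myod1 at -0.33, with 8 of the 16 positive. In that list 0 were without overlap, against 4.65% higher and 4.53% lower of all genes. Of 15 tested myokines 10 were negative, and 3 were lower without overlap (4.53% of all genes). Those with the smallest p were Dcn (log2FC -0.58), Fstl1 (-0.51), Ostn (-0.91) and Fndc5, the irisin precursor gene (0.28). Bdnf was at 0.20, Il15 at -0.08 and Mstn, the growth inhibitor myostatin, at -0.15. Schwann cell and nerve markers had 13 of 14 negative, a median of -0.41 and 0 without overlap, and the median was -0.11 without untrained replicate 3, -0.73 without trained replicate 3 and 0.16 without the libraries high in Myh7. Haemoglobin genes were level, at log2FC -0.06 for Hba-a1 and -0.08 for Hbb-bs.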

How the data were processed

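The authors deposited a table of RSEM expected counts per gene, not normalized. STAR 2.7.8a, RSEM 1.3.2 and the mm10 build are named in the submitters' processing notes. The annotation release and the use of strand are not given in the sources used here, so antisense and overlapping genes cannot be told apart, and RSEM divides reads among similar copies, which makes rows such as mitochondrial or ribosomal RNA look-alikes uncertain. Of the deposited expected counts, 12.48% were not whole, and all were rounded. All 16 libraries (40888272 to 61703679 counts) were filtered with filterByExpr by group (17490 of 55487 genes), scaled by TMM and fitted with 1 mean per group in edgeR 4.0.16 (R 4.3.3; limma 3.58.1 and DESeq2 1.42.0 as alternatives). The biological coefficient of variation was 14.14%. Calls used p-values adjusted by Benjamini-Hochberg over all tested genes, with a threshold of 0.05. The fit was tested on simulated data. No pair of replicates agreed within sampling noise. The chi-square of count differences per degree of freedom was 114.8 to 130.4 for pairs with WT untrained replicate 2. It was 6.624 to 41.78 for all other pairs within a group. Gene positions come from the GENCODE annotation of GRCm38 and promoter windows from RefSeq (GRCm38.p6).

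The members and gene lists were chosen with earlier results of these data known. The rule for naming took, among genes of at least 5 CPM in Tg muscle, the 12 with the smallest p and the 6 with the largest fold in each direction, up to 4 members with the smallest p of each list and 5 genes for the difference of responses. Not every gene so named is described, and genes beyond this rule were picked with their values known. Alternatives were other normalization, filters, tools and fits, single libraries left out, and libraries high in Alb or Myh7 left out.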

Additional observations from a re-analysis of the deposited data

Results flagged for a closer look

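In groups of 4 Tg libraries, 108 genes were examined for 1 library far from the other 3, which chance alone flags in about 1 of 20 groups, and 18 of 216 groups met the criterion (Dixon's test of the gap over the range, at the 95% level). Among trained libraries, replicate 1 stood high for Nr4a3 (2.62 CPM against 1.48 to 1.53), Errfi1 (26.4 against 21.1 to 21.2) and Slc11a2 (16.4 against 14.1 to 14.4). Trained replicate 2 was low for Csf2ra (0.351 CPM against 0.453 to 0.472) and high for mt-Nd6 (559 against 440 to 458). Trained replicate 3 was low for Hspb7 (94.5 CPM against 177 to 193) and high for Acta2 (18.8 against 15.9 to 16.4). Trained replicate 4 was low for Serp1 (6.45 CPM against 7.14 to 7.24) and high for Sdhaf4 (7.28 against 6.91 to 6.97).

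Among untrained libraries, replicate 1 was high for Lep (9.21 CPM against 2.18 to 2.81) and CT010467.1 (1830 against 1140 to 1230). Replicate 3 was low for Tomm5 (8.23 CPM against 9.66 to 9.89), Myl3 (6.54 against 22.4 to 25), mt-Nd6 (264 against 354 to 370) and Cmc2 (5.23 against 6.41 to 6.62), and high for Hspa1a (18.7 against 6.8 to 8.07). Replicate 2 was high for Usp18 (0.922 CPM against 0.768 to 0.782) and replicate 4 for Cxcl1 (0.805 against 0.254 to 0.328). The training responses of the 2 genotypes differed at Apold1 by -2.38 on the log2 scale, Tg minus WT, at Thap2 by 1.04 and at its chromosomal neighbour Zfc3h1 by 0.85, by the test of the difference itself.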

How the results depend on the processing

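For training in Tg muscle, where 0 genes were called, the count was 5 with no filter on low counts, 132 with DESeq2, 123 with only the 8 Tg libraries, 104 without the libraries above 10 CPM of Alb and 9 without those above 10 CPM of Myh7, each set including WT untrained replicate 2. It was 0 with relative log expression scaling, a CPM filter, limma-voom, robust dispersion and removal of mitochondrial rRNA and 7SL RNA. Leaving out single libraries gave 0 to 93 genes, the 93 where WT untrained replicate 2 was absent, 4 in the absence of Tg trained replicate 3 and 1 in that of WT trained replicate 2. Single libraries were also left out of the 8-library fit, a choice made after seeing the data, as were the list counts under other settings. Leaving out trained replicates 1 to 4 in turn gave 68, 5, 68 and 3, and leaving out untrained replicates 1 to 4 gave 103, 65, 41 and 414. The cause was not tested. The difference of training responses, 9 genes, became 15 with no filter, 37 with DESeq2 and 4 without the libraries high in Myh7. The log2FC of Tnnc1 (0.024), Myl2 (0.147), Tnni1 (0.027) and Mss51 (0.737) reversed without the libraries high in Myh7, and that of Zfc3h1, near 0, ran from -0.012 without Tg untrained replicate 4 to 0.069 without untrained replicate 2. Same-numbered trained and untrained Tg libraries deviated together only in part (r of -0.054, 0.202, 0.145 and 0.284 across genes). The labels do not say what a shared number means. With the replicate block 0 genes were called for training in Tg muscle and 7 for the difference. Leaving out single libraries gave 6 to 12 genes for the difference.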
